A study of Mus musculus with 14 samples.

Results

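The Bdnf locus was described through the regions of accessible chromatin in a window of 140 kb around the gene, chr2:109470000-109610000 on the mm9 build. The window is set by position and not by any measured value, but it was chosen with earlier results of these data known. The window held 26 of the 191271 regions measured in the series, and all 26 passed the filter on low values. The assay was ATAC-seq: an enzyme inserts sequencing adapters wherever DNA is accessible, and the inserted fragments are counted. Nuclei of hippocampal neurons were sorted with antibodies against NeuN (a neuronal protein), Arc and GFP. The 14 libraries form 4 groups: Reactivated (n = 3), Late (n = 4), Early (n = 3) and Basal (n = 4). All mice carried ArcCreERT2, a tamoxifen-dependent Cre driven by the Arc gene, together with the R26R-STOP-floxed eYFP reporter, and their genotype is given as +/+. All were kept in the dark before fear conditioning, received 4-hydroxytamoxifen 1 h before it, so that cells with an active Arc gene keep a fluorescent mark, and received a foot shock on day 0. Reactivated mice had recall on day 5, with collection labelled day 5, 6 and 7 for replicates 1, 2 and 3. Late mice were collected on day 5 and Early mice on day 0, both without recall. Basal carries the same treatment label as Early, and no label tells how the nuclei of any group were gated. Contrasts between the groups therefore cannot be read as time or recall alone. Ages are not given in the labels. Hippocampi of 10-12 mice were pooled for 10000 nuclei per condition, with 3 biological replicates stated. Since no label ties a library to its mice, the spread behind each p-value is that of libraries and may be technical. In such sorted pools, fewer nuclei with an open region and less opening per nucleus cannot be told apart. The table pairs no gene names with regions, so the neuronal label was not checked against marker genes here.

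Bdnf encodes brain-derived neurotrophic factor, a secreted protein that acts through the receptor TrkB and supports synaptic plasticity and memory in the hippocampus. The rodent gene has several alternative first exons, each with its own promoter, which are spliced to a shared coding exon at the far end of the gene. Neuronal activity induces some of these promoters more than others. The promoter of exon IV is the best studied, and it is bound by CREB, a factor that recognises the cyclic AMP response element (CRE), and by the activity-induced factor NPAS4.

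The gene lies on the plus strand and was taken to span chr2:109514800-109567200 in mm9, with its alternative first exons at the low end. The RefSeq table used here is of another build, GRCm38.p6, and lists 12 Bdnf transcripts and 7 starts over a gene of 52344 bases. In GRCm38.p6 starts 2 to 7 lie 2.3, 17.7, 18.3, 19.7, 34.7 and 48.2 kb after start 1. In mm9 the highest regions of the window lay 1.4 to 4.1, 17.6 to 18.0 and 18.6 to 20.6 kb after the gene start given above. No coordinates were converted between the builds, so a region was not assigned to a start. Promoters of starts 1, 2, 3 and 5 are shown, from 250 bases before to 50 after each start. These starts lie at the gene start or at distances like those of the highest regions. Start 4, at 18.3 kb, lies at a like distance too but is not shown. Its promoter held none of the 3 motifs marked below. Capitals mark 3 motifs on either strand, and no matches overlapped. They are TGACG (the CRE half-site), TGANTCA and TCGTG (a core bound by bHLH-PAS factors such as NPAS4). TGANTCA is a loose form of the AP-1 motif, with any base in the middle where the AP-1 consensus has C or G.
Bdnf start 1: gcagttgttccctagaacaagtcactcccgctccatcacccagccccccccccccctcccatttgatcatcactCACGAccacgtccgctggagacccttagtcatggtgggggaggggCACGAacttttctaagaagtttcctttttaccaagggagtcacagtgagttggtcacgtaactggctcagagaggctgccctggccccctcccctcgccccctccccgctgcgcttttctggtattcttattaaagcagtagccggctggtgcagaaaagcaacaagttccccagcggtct
Bdnf start 2: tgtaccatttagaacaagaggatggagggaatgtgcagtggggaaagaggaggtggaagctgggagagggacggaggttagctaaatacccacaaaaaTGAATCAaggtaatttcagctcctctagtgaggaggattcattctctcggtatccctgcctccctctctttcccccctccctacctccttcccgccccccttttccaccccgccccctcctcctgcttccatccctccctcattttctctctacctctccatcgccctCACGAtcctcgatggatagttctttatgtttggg
Bdnf start 3: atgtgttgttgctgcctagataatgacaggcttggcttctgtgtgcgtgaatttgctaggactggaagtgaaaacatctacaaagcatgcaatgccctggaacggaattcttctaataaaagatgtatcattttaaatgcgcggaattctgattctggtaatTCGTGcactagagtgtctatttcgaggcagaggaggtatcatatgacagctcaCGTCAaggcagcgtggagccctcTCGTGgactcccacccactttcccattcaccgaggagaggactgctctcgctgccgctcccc
Bdnf start 5: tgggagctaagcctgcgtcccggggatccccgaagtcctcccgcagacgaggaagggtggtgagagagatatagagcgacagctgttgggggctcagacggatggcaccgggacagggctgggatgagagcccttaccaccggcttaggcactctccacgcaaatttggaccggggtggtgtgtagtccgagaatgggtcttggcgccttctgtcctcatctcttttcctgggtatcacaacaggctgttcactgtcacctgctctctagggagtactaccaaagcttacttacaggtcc
Only start 3 among the 7 Bdnf promoters held a CRE half-site, whose first base lies 35 bases before the start, against 20.8% of all 32851 promoters in the table. The loose AP-1 form was in 1 of 7 Bdnf promoters (start 2) and in 7.81% of all promoters. The match at start 2 reads TGAATCA, so its middle base is not that of the AP-1 consensus. TCGTG was in 3 of 7 (starts 1, 2 and 3) and in 16.0% of all. The GC content of the 7 ran from 38.7% at start 6 to 58.0% at start 5, against a median of 52.7% for all promoters. These matches are letters in a window and show no binding.

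The 26 regions of the window compare with a mean of 10.9 per 140 kb on chromosome 2, and they covered 14.4% of the window against 5.04% of the chromosome. Their lengths ran from 149 to 2624 bases. By position, 7 lay upstream of the gene, 9 within it and 10 downstream. Values are RPKM, reads per 1000000 library reads and kilobase of region, and levels between regions are compared on this scale only. The highest 4 regions stood between the 97.3 and 99.7 percentile of mean RPKM over all regions of the series, and all 4 lay between 1.1 kb upstream of the gene start and 20.6 kb into the gene. The lowest region of the window, chr2:109580776-109581224, stood at the 10.3 percentile.

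**Figure D1:**
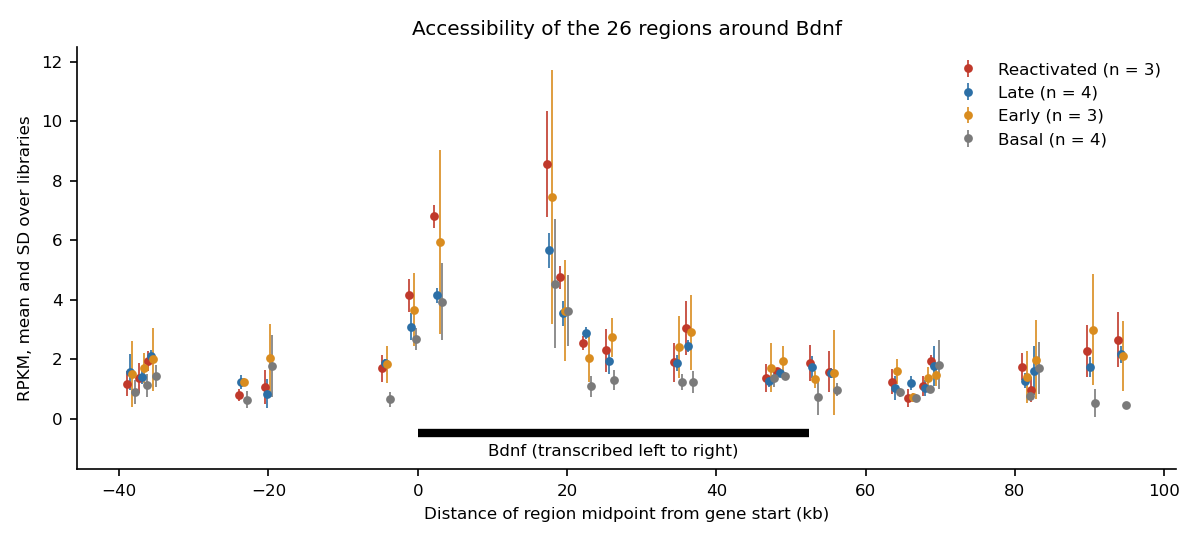
Mean RPKM (points) and SD over libraries (bars) of the 26 regions by distance of their midpoint from the gene start in kb, for Reactivated (n = 3), Late (n = 4), Early (n = 3) and Basal (n = 4), with the gene drawn as a black bar. Levels peak near the gene start and about 18 kb into the gene, where Reactivated averaged 8.56 RPKM and Basal 4.53 RPKM.

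The highest region of the window was chr2:109532376-109532797, 421 bases long and 17.6 to 18.0 kb into the gene. It had 7.85, 7.22 and 10.6 RPKM in Reactivated, 5.47, 6.54, 5.26 and 5.36 RPKM in Late, 4.03, 12.3 and 6.08 RPKM in Early, and 7.40, 3.68, 2.28 and 4.77 RPKM in Basal. Early replicate 2 was the highest library and Basal replicate 3 the lowest, and Basal alone spanned a wider range than Late. The group means were 8.56 ± 1.79 RPKM in Reactivated (SD, n = 3), 5.66 ± 0.593 in Late (n = 4), 7.46 ± 4.28 in Early (n = 3) and 4.53 ± 2.17 in Basal (n = 4). The difference of Reactivated from Basal just missed the threshold (log2 fold change 0.93 ± 0.35 SE, limma adjusted p = 0.0502), with 2 of 3 Reactivated libraries above every Basal library. It passed under 5 of 24 alternatives, with adjusted p from 0.0145 with voom weights to 0.982 (limma). The log2 fold change was between 0.018, with the share of reads inside regions as a covariate, and 1.18, without Basal replicate 1, and it was 0.48 after median-of-ratios scaling. Neither Late (log2 fold change 0.39, 95% interval -0.29 to 1.07) nor Early (0.63, -0.10 to 1.36) passed against Basal.

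The broad region chr2:109516231-109518855, 2624 bases long and 1.4 to 4.1 kb into the gene, rests on the most reads of the window, 376 to 1271 per library. It had 6.35, 6.94 and 7.10 RPKM in Reactivated, 3.93, 4.16, 4.47 and 4.01 RPKM in Late, 2.77, 8.93 and 6.11 RPKM in Early, and 5.72, 3.46, 2.64 and 3.90 RPKM in Basal. All Reactivated libraries were above all Late and all Basal libraries, while Early spanned nearly the whole range. The log2 fold change of Reactivated was 0.76 ± 0.32 SE against Basal (limma adjusted p = 0.0694) and 0.65 ± 0.32 SE against Late (adjusted p = 0.444), so neither passed. The first passed under 5 of 24 alternatives, and its log2 fold change was between 0.0012, with the share of reads inside regions as a covariate (limma adjusted p = 0.999), and 0.94, without Basal replicate 1 (adjusted p = 0.0303). Late against Basal gave 0.11 (95% interval -0.50 to 0.72), and this sign turned negative after median-of-ratios scaling.

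Region chr2:109533371-109535391, 2020 bases long and 18.6 to 20.6 kb into the gene, had 4.36, 4.77 and 5.12 RPKM in Reactivated, 3.95, 3.13, 3.88 and 3.19 RPKM in Late, 2.57, 5.58 and 2.75 RPKM in Early, and 5.29, 2.80, 2.72 and 3.70 RPKM in Basal. Reactivated lay above all Late libraries but within the range of Basal. Late, Early and Basal had nearly the same means, 3.54 ± 0.434, 3.63 ± 1.69 and 3.63 ± 1.19 RPKM (SD). The 95% intervals of the log2 fold change against Basal were -0.54 to 0.55 for Late, -0.62 to 0.56 for Early and -0.20 to 0.98 for Reactivated, so changes within those bounds were not excluded. The sign for Reactivated turned negative after median-of-ratios scaling (-0.06).

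Closest to the gene start, and 1.1 to 0.3 kb upstream of it, lay chr2:109513741-109514506. It had 3.97, 3.69 and 4.77 RPKM in Reactivated, 3.13, 2.44, 3.39 and 3.39 RPKM in Late, 2.70, 5.03 and 3.25 RPKM in Early, and 3.03, 2.43, 2.29 and 2.91 RPKM in Basal. Reactivated was above every Late and every Basal library, and Early was not. Its log2 fold change was 0.55 ± 0.25 SE for Reactivated against Basal (limma adjusted p = 0.0968), 0.18 ± 0.24 for Late (adjusted p = 0.586) and 0.36 ± 0.25 for Early (adjusted p = 0.354).

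The order of the group means was the same at 3 of these 4 regions, with Reactivated highest, then Early, Late and Basal, and at the region 18.6 to 20.6 kb into the gene Basal stood above Late. No difference between neighbours in this order passed the test in the fit of all libraries. The 4 regions moved together over the 14 libraries, with Pearson r of 0.770 to 0.921 for their 6 pairs and 0.760 to 0.90 after the group means were taken out. Over all 325 pairs of window regions the median r was 0.369, and 0.283 after the group means were taken out. The 4 highest regions held at least 52 reads in every library, while other window regions went down to 2. The part of read number in these r values was not tested. These are descriptions over libraries that differ in depth inside regions.

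**Figure D2:**
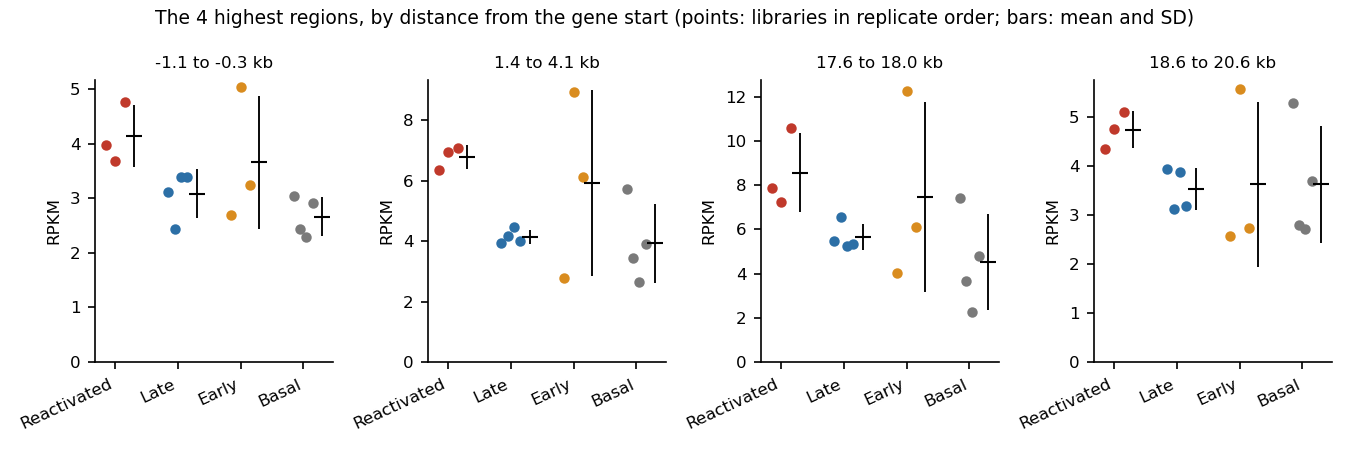
RPKM of each library (points, in replicate order within a group) and the mean and SD (black bars) at the 4 highest regions of the window, with distances from the gene start in kb above each panel. On the deposited scale Reactivated lies above Late in all 4 panels, though quantile normalization turned that sign at the regions 17.6 to 18.0 and 18.6 to 20.6 kb, and Early replicate 2 is the highest library of all at each of them.

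Against Basal, the regions that passed the test (limma over 172143 regions, Benjamini-Hochberg adjusted p under 0.05) were other ones, of lower level, and each of them was higher than in Basal. In Reactivated 7 of 26 were higher, or 26.9%, where 24.3% of all regions tested were higher, 4.78% lower and 29.1% either. In Late 7 of 26 were higher, again 26.9%, where 23.9% of all regions were higher, 6.03% lower and 30.0% either. In Early 5 of 26 were higher, or 19.2%, where 10.9% of all regions were higher, 1.44% lower and 12.4% either. In each comparison 0 of 26 were lower (also 0 with voom weights), and 1 region in Late and 0 in Reactivated and Early had a negative fold change with an unadjusted p under 0.05. The shares called in Reactivated and Late are near those of the whole table. Without any overlap, 10 of 26 regions were higher in Reactivated than in Basal (34.9% of all regions) and 0 lower (5.54%). In Late 9 were higher (29.6%) and 0 lower (6.30%), and in Early 8 were higher (15.7%) and 0 lower (3.71%). The 3 comparisons share the Basal libraries, so they are given side by side and not as repeats of each other. In all, 9 regions were called in at least 1 of them and 4 in all 3.

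The furthest region downstream, chr2:109608700-109609638, 93.9 to 94.8 kb after the gene start, had the largest fold changes against Basal in Reactivated and Late. It had 1.69, 2.77 and 3.52 RPKM in Reactivated, 2.09, 2.10, 2.57 and 1.91 RPKM in Late, 1.06, 3.38 and 1.85 RPKM in Early, and 0.413, 0.413, 0.452 and 0.570 RPKM in Basal. Basal was low and tight, and no library of another group reached down to it. The mean was 5.76 times that of Basal in Reactivated (log2 fold change 1.67 ± 0.27 SE, limma adjusted p = 0.00177), 4.69 times in Late (1.47 ± 0.25 SE, adjusted p = 0.000625) and 4.54 times in Early (1.34 ± 0.27 SE, adjusted p = 0.00769). Log2 fold changes are of RPKM + 0.5 and therefore understate the ratio at low regions.

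Its neighbour chr2:109604924-109605183, 90.1 to 90.4 kb after the gene start, had 1.85, 1.71 and 3.27 RPKM in Reactivated, 1.91, 1.84, 1.96 and 1.23 RPKM in Late, 1.71, 5.12 and 2.13 RPKM in Early, and 0.142, 0.498, 0.285 and 1.21 RPKM in Basal. Groups did not overlap with Basal, although Late replicate 4 and Basal replicate 4 nearly met. The region is 259 bases long and rests on 2 to 72 reads per library. Its log2 fold change was 1.49 ± 0.33 SE in Reactivated (limma adjusted p = 0.00499), 1.20 ± 0.30 SE in Late (adjusted p = 0.00607) and 1.73 ± 0.33 SE in Early (adjusted p = 0.00634). Both regions lie outside the gene, and nothing in the table ties them to Bdnf.

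Upstream of the gene, chr2:109510014-109511066, 4.8 to 3.7 kb before the start, was called in all 3 comparisons. It had 1.23, 1.68 and 2.14 RPKM in Reactivated, 2.07, 1.88, 1.73 and 1.76 RPKM in Late, 1.44, 2.54 and 1.49 RPKM in Early, and 0.858, 0.613, 0.280 and 0.823 RPKM in Basal. No group overlapped with Basal. The log2 fold changes were 0.95 ± 0.24 SE in Reactivated (limma adjusted p = 0.0102), 1.07 ± 0.23 SE in Late (adjusted p = 0.00213) and 1.02 ± 0.24 SE in Early (adjusted p = 0.0133).

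Inside the gene, chr2:109550481-109551938, 35.7 to 37.1 kb after the start, was also called in all 3. It had 2.10, 3.12 and 3.90 RPKM in Reactivated, 2.53, 2.69, 2.22 and 2.32 RPKM in Late, 1.92, 4.33 and 2.44 RPKM in Early, and 1.47, 0.911, 0.898 and 1.62 RPKM in Basal. No library of the other groups fell into the Basal range. The log2 fold changes were 1.03 ± 0.27 SE in Reactivated (limma adjusted p = 0.0108), 0.79 ± 0.25 SE in Late (adjusted p = 0.0212) and 0.94 ± 0.27 SE in Early (adjusted p = 0.0281). Upstream of it, chr2:109549379-109549922 averaged 1.89 ± 0.671 RPKM in Reactivated, 1.86 ± 0.277 in Late, 2.40 ± 1.05 in Early and 1.22 ± 0.261 in Basal (SD) and was not called.

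Region chr2:109537216-109537782, 22.4 to 23.0 kb into the gene, had 2.29, 2.54 and 2.77 RPKM in Reactivated, 2.82, 3.14, 2.65 and 2.89 RPKM in Late, 1.50, 2.96 and 1.66 RPKM in Early, and 1.43, 1.24, 1.04 and 0.619 RPKM in Basal. The means were 2.53 ± 0.238 RPKM in Reactivated, 2.87 ± 0.205 in Late, 2.04 ± 0.803 in Early and 1.08 ± 0.348 in Basal (SD), and no library of the other groups fell into the Basal range. Its log2 fold change was 0.96 ± 0.25 SE in Reactivated (limma adjusted p = 0.0102), 1.12 ± 0.23 SE in Late (adjusted p = 0.00186) and 0.67 ± 0.25 SE in Early, which did not pass (adjusted p = 0.0770).

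Just past the gene end, chr2:109567726-109568022 had 1.44, 1.62 and 2.55 RPKM in Reactivated, 1.82, 1.39, 1.50 and 2.23 RPKM in Late, 1.49, 1.49 and 0.996 RPKM in Early, and 0.498, 0.374, 0.374 and 1.62 RPKM in Basal. Basal replicate 4 stood with the other groups, so the groups overlapped. Reactivated (log2 fold change 1.04 ± 0.28 SE, limma adjusted p = 0.0118) and Late (0.97 ± 0.26 SE, adjusted p = 0.00844) passed, and Early did not (0.69 ± 0.28 SE, adjusted p = 0.103). This call rests on 6 to 41 reads per library.

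The remaining 3 called regions each passed once, and they are named because their calls had been seen. Region chr2:109595600-109596994 was higher in Reactivated (1.75 ± 0.457 RPKM against 0.770 ± 0.133 RPKM in Basal), chr2:109490958-109491691 in Late (1.24 ± 0.231 RPKM against 0.635 ± 0.279 RPKM in Basal) and chr2:109540536-109540732 in Early (2.73 ± 0.658 RPKM against 1.29 ± 0.329 RPKM in Basal). Their adjusted p was 0.0237, 0.0199 and 0.0332 in that order (limma). After median-of-ratios scaling none of these 3 passed, nor did chr2:109567726-109568022 in Reactivated.

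**Figure D3:**
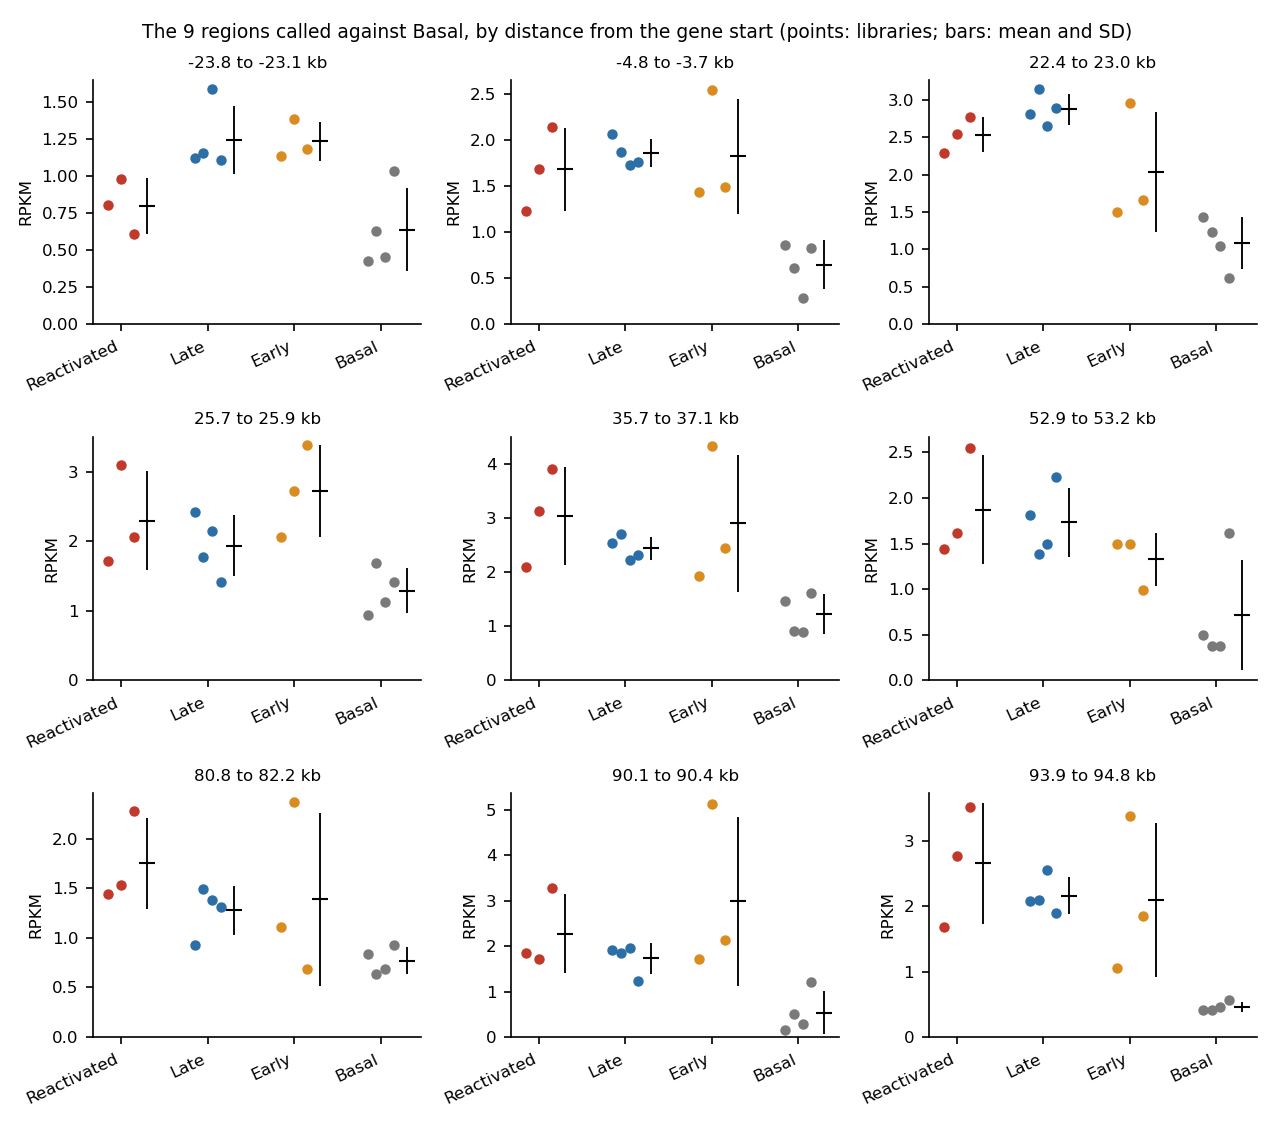
RPKM of each library (points) and the mean and SD (black bars) at the 9 regions called in at least 1 comparison with Basal, with distances from the gene start in kb. Basal lies lowest on average in all 9 panels; single libraries overlap with Basal in some panels, such as Basal replicate 4 at 52.9 to 53.2 kb.

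The other 17 regions were not called in any comparison, the 4 highest included. Near the far end of the gene, chr2:109562790-109564228, 48.0 to 49.4 kb after the start, averaged 1.61 ± 0.0795 RPKM in Reactivated, 1.54 ± 0.109 in Late, 1.94 ± 0.513 in Early and 1.42 ± 0.134 in Basal (SD). Its log2 fold changes against Basal were 0.14, 0.09 and 0.33 in Reactivated, Late and Early. The lowest fold change in Late was at chr2:109494666-109494864, upstream of the gene, with 0.837 ± 0.498 RPKM in Late against 1.77 ± 1.04 RPKM in Basal (log2 fold change -0.74 ± 0.35 SE, limma adjusted p = 0.108), on 2 to 33 reads per library.

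**Figure D4:**
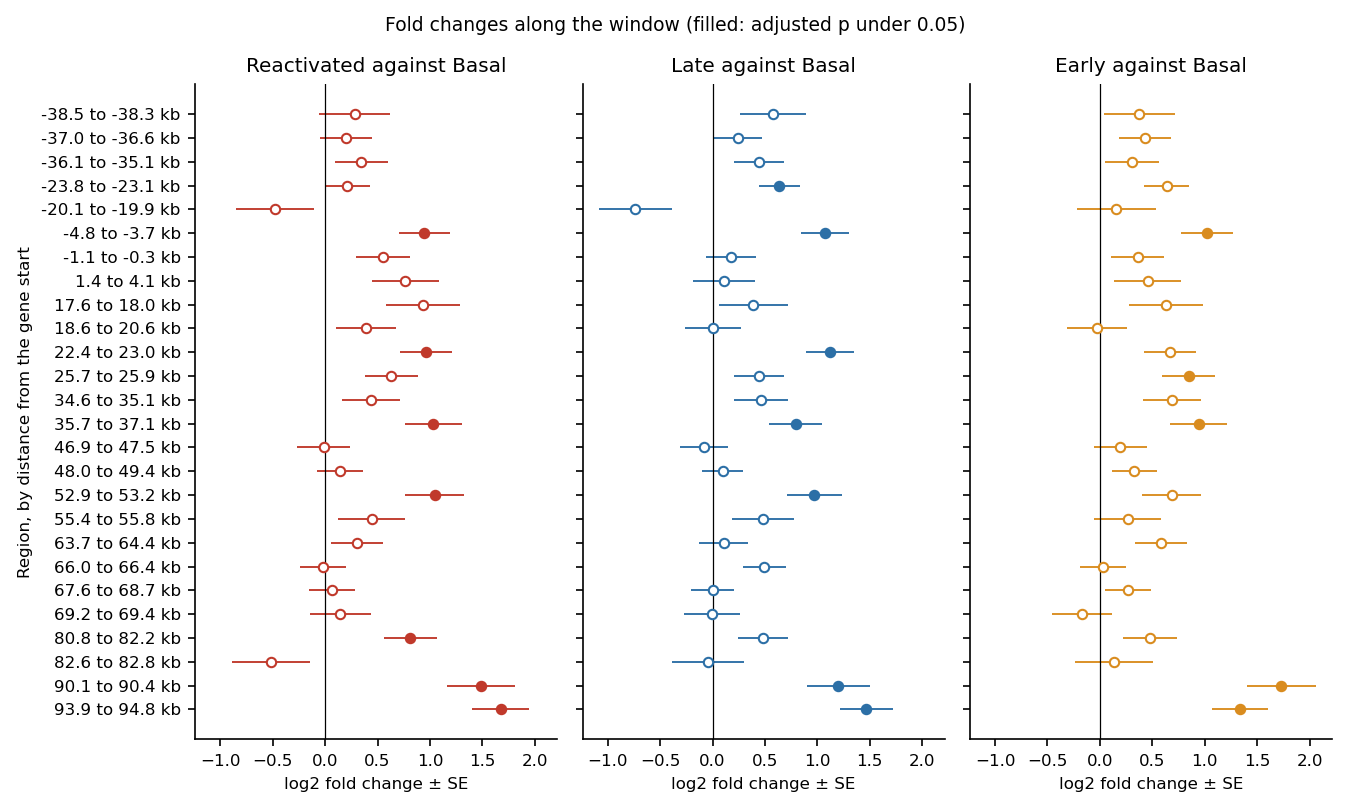
Log2 fold change of RPKM + 0.5 against Basal with its standard error for the 26 regions, ordered from upstream to downstream by distance from the gene start in kb, in Reactivated, Late and Early. Filled points passed (adjusted p under 0.05), all of them to the right of 0, and the regions from 1.1 kb upstream to 20.6 kb into the gene are not among them.

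Reactivated against Late is the pair collected from day 5 on, and it differs in recall. The collection day differs as well, since Reactivated replicates 2 and 3 are labelled day 6 and 7 and all Late libraries day 5. No label gives the gate of either group, so an effect of recall alone cannot be told apart. No region of the window passed in either direction, where 0.0256% of all regions were higher, 0.205% lower and 0.231% either (limma). 1 region with an unadjusted p under 0.05, chr2:109580776-109581224, was lower, at 0.694 ± 0.303 RPKM in Reactivated against 1.18 ± 0.236 RPKM in Late. With voom weights on recovered reads 0 were called, and in a fit of these 2 groups alone 2 were, chr2:109516231-109518855 (limma adjusted p = 0.00421) and chr2:109532376-109532797 (adjusted p = 0.0406), both higher in Reactivated. That fit called 5497 regions higher and 1220 lower of 172143, against 44 and 353 in the fit of all libraries. Each of the 2 window regions passed under 1 of 24 alternatives, and with quantile normalization their log2 fold changes were 0.0051 and -0.39 in that order. Reactivated lay above Late without overlap at 4 of 26 regions, the 4 highest of the window, a share near the 13.5% of all regions. It lay below Late without overlap at 1, chr2:109490958-109491691 (0.795 ± 0.189 RPKM in Reactivated against 1.24 ± 0.231 RPKM in Late), where 5.03% of all regions did so. Over all regions of the series, the Late libraries had a lower maximum: no region exceeded 0.738 reads per base in any of them, while the highest region of each other library held 2.14 to 9.75. Median reads per region were 31 to 34 in Late, within the 25 to 47 of the other libraries. The 3 highest window regions held 52.2% ± 2.57 of the window's reads in Reactivated (SD, n = 3), 43.5% ± 0.439 in Late (n = 4), 45.8% ± 6.39 in Early (n = 3) and 52.9% ± 6.15 in Basal (n = 4). Whether the lower maximum of the Late libraries has a part in their lower values at these regions was not tested.

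Late against Early had 0 of 26 called, where 0.310% of all regions were higher, 0.103% lower and 0.414% either (limma; 2 of 26 had an unadjusted p under 0.05). Reactivated against Early also had 0 of 26, where 0.944% were higher, 0.417% lower and 1.36% either (0 of 26 had an unadjusted p under 0.05). With voom weights 0 were called in both. Late and Early were apart without overlap at 0 of 26 regions in either direction, where 5.21% of all regions had Late above and 4.60% had Late below. Reactivated was above Early without overlap at 0 of 26 and below it at 1, where 10.6% and 6.28% of all regions were. The median log2 fold change of the 26 regions was -0.17 for Late against Early and -0.06 for Reactivated against Early, beside 0.02 and 0.11 for all regions. Both signs rested on single libraries: without Early replicate 2 the medians were 0.15 and 0.23, and without Reactivated replicate 1 the second was 0.06.

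Summed over the 26 regions, the window held 52.4, 59.7 and 67.1 reads per 1000000 library reads in Reactivated, 46.8, 46.0, 49.8 and 44.7 in Late, 36.9, 80.4 and 48.9 in Early, and 46.5, 32.1, 27.7 and 38.9 in Basal. Reactivated lay above all Late and Basal libraries, and Early ran from within the Basal range to above every other library. The group means were 59.7 ± 7.34 in Reactivated, 46.8 ± 2.14 in Late, 55.4 ± 22.5 in Early and 36.3 ± 8.19 in Basal (SD). The share of reads that fell inside any region also differed: 23.1% ± 1.54 in Reactivated, 19.2% ± 0.653 in Late, 19.9% ± 7.15 in Early and 15.7% ± 2.71 in Basal, with 13.8%, 27.8% and 18.1% in Early replicates 1, 2 and 3. Its part in the totals was not tested. Divided by the reads inside regions, the window held 260 ± 36.3 reads per 1000000 such reads in Reactivated, 244 ± 8.87 in Late, 275 ± 12.3 in Early and 229 ± 14.4 in Basal. On this scale the 3 Early libraries lay at 267, 289 and 270, above the 4 Basal libraries at 240, 226, 210 and 241, and Reactivated replicate 1, at 218, fell among Basal. The log2 ratio of Reactivated to Basal was 0.72 on the library total and 0.18 on the reads inside regions.

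**Figure D5:**
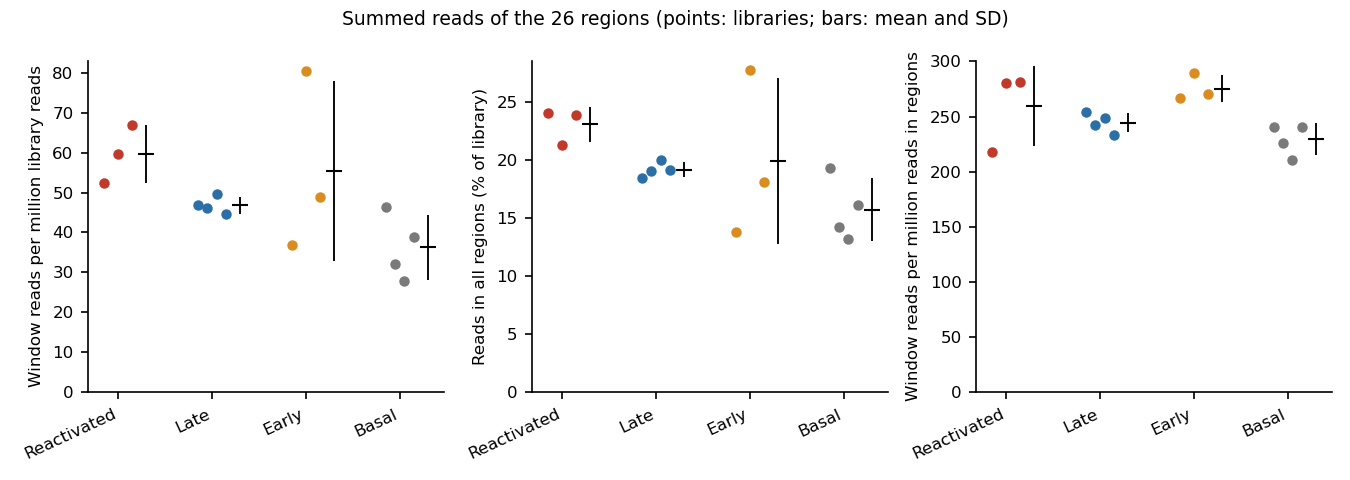
Reads per 1000000 library reads, summed over the 26 regions (left), share of library reads inside any region in percent (middle) and the window's reads per 1000000 reads inside regions (right), for each library (points) with mean and SD (black bars). Early spans 36.9 to 80.4 on the left and 267 to 289 on the right.

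Fold changes of the whole table were shifted as well. The median log2 fold change against Basal was 0.39 in Reactivated, 0.28 in Late and 0.23 in Early over all regions, and 0.41, 0.44 and 0.44 over the 26 window regions. Median-of-ratios scaling brought the medians of all regions to 0.04, -0.00299 and -0.00238 and the window's to 0.02, 0.14 and 0.20. The number of window regions called was then 5 in Reactivated, 6 in Late and 4 in Early, all higher. Over the whole table this scaling gave 15361 higher and 18486 lower in Reactivated, 25189 and 28183 in Late, and 14081 and 11798 in Early, against 41783 and 8235, 41202 and 10380, and 18836 and 2471 without it. With the share of reads inside regions as a covariate 0 window regions were called in Reactivated, 7 in Late and 4 in Early. Over the whole table that fit called 0 higher and 0 lower in Reactivated, 25693 and 11734 in Late, and 6376 and 4968 in Early, so the 0 of the window is that of the table. Window counts also moved with the table when libraries were left out. In Early 0 window regions were called without Early replicate 2 (770 higher and 457 lower in the table), 11 without Early replicate 1 (42743 and 3262) and 2 without Basal replicate 3 (7059 and 1088). In Reactivated 3 were called without Reactivated replicate 3 (15881 and 3184), 11 without Early replicate 1 (53348 and 9689) and 11 without Early replicate 2 (59743 and 10355). When the mean of the 4 Late libraries stood in as 1 sample, 0 were called in Late in the window and 0 in the table.

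The pattern of the window total over the 14 libraries was also found at other regions, though most did not come as close. Of 95615 regions outside the window with a mean RPKM above the median, 5168 had a Pearson r above 0.9 with it. The 5 most alike were chr12:99074315-99075997 (r = 0.991), chr13:21813355-21814544 (0.988), chr1:106122486-106124378 (0.987), chr1:152780448-152782039 (0.987) and chr12:11155993-11158197 (0.987). The first of them averaged 3.89 RPKM in Reactivated, 2.74 in Late, 3.88 in Early and 1.92 in Basal. These r values are descriptions over 14 libraries that differ in depth and in the share of reads inside regions.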

How the data were processed

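ATAC-seq values of 14 libraries were taken from 1 table that the authors deposited, with 1 list of regions for all libraries and RPKM values per library. Bowtie2 2.0, SAMtools, MACS2, DiffBind, DESeq2 and mm9 are named per the submitters' processing notes, without role or order. Region calling settings, duplicate handling and any shift of cut sites: not given in the sources used here. These steps set region borders and the reads at high regions. Whether starts count from 0 or 1 is not stated either.

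RPKM times region length gave whole multiples of 1 step per library (100% within 0.01), so reads were recovered. Totals were 46134253 to 47375212 reads in the Late libraries and 56251676 in Reactivated replicate 1. In all remaining libraries they were nearly equal, 54257222 to 54269492. The part of the lower Late totals in the contrasts with Late was not tested. Window regions held 2 to 1271 reads per library.

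Values were analysed as log2(RPKM + 0.5), without the 10% of regions lowest in mean RPKM, in 1 limma fit of all libraries (limma 3.58.1, R 4.3.3, trend, robust) with group means, 2-sided, with Benjamini-Hochberg adjustment over 172143 regions. The fit was also run on simulated reads, with changes in Late only and the same spread set for every group. Group differences in the share of reads inside regions were not simulated, so that run cannot show how they act on the calls. Python 3.11.15 and matplotlib 3.10.9 did the rest. Regions named by rule are those nearest the gene ends, the 6 highest and, per comparison, the 3 largest called changes in each direction. Further regions were named outside this rule, with their values known. Among them are chr2:109549379-109549922, chr2:109562790-109564228, chr2:109494666-109494864 and chr2:109580776-109581224. The window and these rules were chosen with earlier results of these data known. Promoter sequences are from RefSeq (GRCm38.p6). Replicate numbers were not used to pair libraries, since same-numbered libraries did not deviate together. Other pseudocounts, scalings, weights and library sets were tried, and each library was left out in turn.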

Additional observations from a re-analysis of the deposited data

Results flagged for a closer look

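Among 54 groups of 4 libraries examined (26 regions and the window total, in Late and in Basal), 6 held 1 library that stood apart by a Dixon ratio above its 95% critical value. Chance flags about 1 in 20 such groups. In Late, replicate 2 had 6.54 RPKM at the highest region chr2:109532376-109532797, where the others had 5.26 to 5.47. Late replicate 3 had 1.58 RPKM at chr2:109490958-109491691 (others 1.10 to 1.15), Late replicate 4 had 1.23 RPKM at chr2:109604924-109605183 (others 1.84 to 1.96) and Late replicate 1 had 0.426 RPKM at chr2:109578540-109579248 (others 1.19 to 1.28). In Basal, replicate 4 had 1.62 RPKM at chr2:109567726-109568022 (others 0.374 to 0.498) and replicate 1 had 1.70 RPKM at chr2:109477832-109478243 (others 0.852 to 0.986).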

How the results depend on the processing

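In the 3 comparisons with Basal, all calls in the window were toward higher under every alternative run. Of the alternatives for the named regions called in the report, 402 kept the call and 54 lost it, none with a change of sign. With only the groups compared in the fit, 3 regions were called in Early, 11 in Late and 2 in Reactivated against Late. With the 4 Late libraries averaged to 1 sample, 0 were called in Late, and with a covariate for the percent of a library's reads inside regions, 0 in Reactivated; in both cases the whole table also had 0. The cause was not tested. Leaving out each library in turn gave 3 to 11 in Reactivated, 5 to 9 in Late and 0 to 11 in Early against Basal, and 0 to 1 in Late against Early (1 lower, without Early replicate 2). The replicate block gave 7, 7 and 4 in Reactivated, Late and Early and 0 in the other comparisons. Same-numbered libraries had r of -0.26 to 0.069 over 19 pairs, so the numbers were not read as pairs. Divided by reads inside regions, the log2 ratio of window totals was 0.18 for Reactivated over Basal and 0.088 for Reactivated over Late.

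Among the named regions followed here, 21 values of log2 fold change turned sign, all in comparisons that had not passed. Signs also turned at other window regions that were not called, such as chr2:109494666-109494864 in Reactivated against Basal (-0.48, up to 0.37). At chr2:109532376-109532797 they were -0.040 in Late against Basal with the covariate and -0.39 in Reactivated against Late with quantile normalization. At chr2:109516231-109518855 in Late against Basal they were -0.24 with median-of-ratios scaling, -0.25 with the covariate and -0.038 without Basal replicate 3 (leaving out 1 library gave -0.038 to 0.29). At chr2:109533371-109535391 in Reactivated against Basal they were -0.058 with median-of-ratios scaling, -0.064 with quantile normalization and -0.22 with the covariate, and in Reactivated against Late -0.077 with quantile normalization. At the same region in Late against Basal they were -0.000287 with a pseudocount of 1, -0.35 with median-of-ratios scaling, -0.28 with the covariate and, leaving out 1 library, -0.10 to 0.18. In Early against Basal, leaving out 1 library gave -0.34 to 0.15 there. At chr2:109513741-109514506 in Late against Basal they were -0.16 with median-of-ratios scaling and -0.023 with the covariate. The lowest library counts, down to 2 reads per region, limit which changes could be detected.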
